A study of Mus musculus with 6 samples.

Results

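Sarcomere genes encode the contractile machinery of striated muscle. The 37 genes described here are sarcomeric myosins, troponins, tropomyosins and actins, together with Z-disc and M-band proteins, taken by symbol from a list. All 37 were found among the 24062 genes of a count table made by RNA sequencing of mouse brown fat, a tissue specialised for producing heat. The tissue came from male C57BL/6 mice aged 12 weeks, 3 labelled FAM195A knockout and 3 labelled FAM195A heterozygous. The study concerns heat production in the cold and describes FAM195A as a stress granule protein that binds RNA. By the labels, all 6 animals carry at least 1 disrupted copy of Fam195a, and the table holds no wild-type tissue. The labels state neither how the allele was made nor the housing temperature. Each library is named by its labelled genotype and a number that pairs nothing.

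In a sarcomere, thick filaments of myosin slide along thin filaments of actin. Calcium binding to troponin moves tropomyosin aside and lets myosin heads attach. The Z-disc anchors the thin filaments, the M-band ties the thick filaments together, and titin spans the distance between these structures. Most of these proteins come in fast and slow isoforms, which mark fast-twitch and slow-twitch fibres. Brown adipocytes share an embryonic lineage with skeletal muscle but build no sarcomeres, and brown fat depots lie beside muscle.

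Reads counted in genes came to between 22418031 and 25084627 in the knockout-labelled libraries and between 18781401 and 20471963 in the heterozygous-labelled ones. Fam195a itself did not separate the labels, at 50.5, 82.0 and 81.3 CPM in knockout 1, 2 and 3 and 69.0, 70.5 and 103 CPM in heterozygous 1, 2 and 3. CPM expresses a gene's reads relative to the depth of its library, corrected for composition. The log2 fold change of Fam195a was -0.18 (SE 0.241, edgeR adjusted p = 0.896). Directions below are therefore those of libraries labelled knockout relative to libraries labelled heterozygous. Ucp1, the uncoupling protein of brown fat, was abundant in all of them, at 4390, 5693 and 1647 CPM in knockout 1, 2 and 3 and 4898, 5290 and 2963 CPM in heterozygous 1, 2 and 3. Titles start with RE in knockout 3 and heterozygous 3 and with RF in the other 4 libraries, and the labels do not say what this means.

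Upstream regions of muscle genes carry binding motifs of muscle transcription factors. Windows reaching from 250 bases before to 50 bases after a transcript start were found in RefSeq (GRCm38.p6) for 27 of the 37 members, in 32 windows. The 4 windows below, chosen after the values were seen, belong to Myh4, the most abundant myosin heavy chain here, Acta1, the skeletal actin, Myh7, the slow myosin, and Myoz2, a slow-fibre Z-disc protein. They are read 5′ to 3′ on the strand of the gene, and capitals mark matches to the E-box (CANNTG, its own reverse complement, bound by myogenic helix-loop-helix factors), the CArG box of serum response factor and the MEF2 site.
Myh4 chr11:67237562-67237861 (plus strand): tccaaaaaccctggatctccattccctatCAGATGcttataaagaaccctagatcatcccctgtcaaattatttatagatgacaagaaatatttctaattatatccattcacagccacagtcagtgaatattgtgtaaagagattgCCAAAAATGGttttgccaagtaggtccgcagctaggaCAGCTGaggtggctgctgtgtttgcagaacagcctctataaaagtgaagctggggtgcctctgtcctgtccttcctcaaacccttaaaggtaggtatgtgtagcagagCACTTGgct
Acta1 chr8:123894726-123895025 (minus strand): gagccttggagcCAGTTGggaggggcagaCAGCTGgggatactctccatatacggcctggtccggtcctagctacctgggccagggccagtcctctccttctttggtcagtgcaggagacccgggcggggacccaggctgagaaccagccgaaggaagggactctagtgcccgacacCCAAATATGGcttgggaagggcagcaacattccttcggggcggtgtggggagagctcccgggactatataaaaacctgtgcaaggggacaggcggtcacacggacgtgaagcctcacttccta
Myh7 chr14:54994500-54994799 (minus strand): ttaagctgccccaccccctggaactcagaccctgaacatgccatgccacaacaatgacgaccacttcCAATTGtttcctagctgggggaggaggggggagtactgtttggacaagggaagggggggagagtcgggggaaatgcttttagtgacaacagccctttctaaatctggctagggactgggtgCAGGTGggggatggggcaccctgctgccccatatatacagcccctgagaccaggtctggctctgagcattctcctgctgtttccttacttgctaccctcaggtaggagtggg
Myoz2 chr3:123034938-123035237 (minus strand): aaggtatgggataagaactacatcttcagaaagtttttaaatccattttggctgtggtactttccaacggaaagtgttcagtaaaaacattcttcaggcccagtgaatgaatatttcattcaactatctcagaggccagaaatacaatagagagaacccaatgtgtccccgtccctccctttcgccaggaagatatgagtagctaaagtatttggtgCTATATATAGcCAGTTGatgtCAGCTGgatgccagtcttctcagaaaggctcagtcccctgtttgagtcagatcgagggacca
None of these matches overlapped another motif in the 4 windows. On both strands, an E-box occurred in 28 of the 32 member windows (87.5%), against 72.3% of all 32851 windows of that length. A CArG box occurred in 7 of 32 (21.9%), against 1.6%, and a MEF2 match in 3 of 32 (9.4%), against 0.6%. A match of letters is not evidence of binding.

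Myh2, Myh1 and Myh4 stand in a row on the plus strand of chromosome 11, Myh2 from 67171027 to 67197517, Myh1 from 67200052 to 67224575 and Myh4 from 67238029 to 67260446 (GRCm38). Their transcripts are alike enough that reads can be hard to assign. Of all 50-base stretches in their annotated transcripts, 22.9% in Myh2, 25.4% in Myh1 and 18.9% in Myh4 also occurred in transcripts of other genes. The share was 15.6% for Myh7 on chromosome 14, mostly with the heart myosin Myh6, 23.2% for Tpm3 and 11.7% for Myl1, and at most 2.02% for the other 31 members. The split among these genes is therefore uncertain. Reads with more than 1 alignment were set aside in a row of their own, and made up 17.6% to 19.8% of the column totals in the knockout-labelled libraries and 21.8% to 23.9% in the heterozygous-labelled ones. Tnnc2, on chromosome 2 from 164777161 to 164779967, overlaps Ube2c on the opposite strand over 74% of its annotated exonic length. Whether strand was used in counting is not stated, so reads from this overlap may have been left out of both genes or mixed between them.

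Sarcomere transcripts were lower in every knockout-labelled library than in every heterozygous-labelled one for 34 of the 37 genes, against 9.89% of all tested genes. The exceptions were Myl3, Tnnc1 and Tpm3. No member passed the test with edgeR, which called 0.534% of all tested genes lower. The 37 genes together held 0.715%, 0.449% and 0.371% of the reads in genes in knockout 1, 2 and 3, against 1.12%, 2.73% and 3.63% in heterozygous 1, 2 and 3. The means were 0.512% ± 0.180 in knockout-labelled and 2.49% ± 1.27 in heterozygous-labelled libraries (SD, n = 3 each). The groups did not overlap, but the heterozygous-labelled libraries differed among themselves by 3.24-fold and the knockout-labelled ones by 1.93-fold. Knockout 1 and heterozygous 1 were the neighbours across the divide. In bulk tissue, fewer muscle cells and less of these RNAs per cell cannot be told apart.

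**Figure D1:**
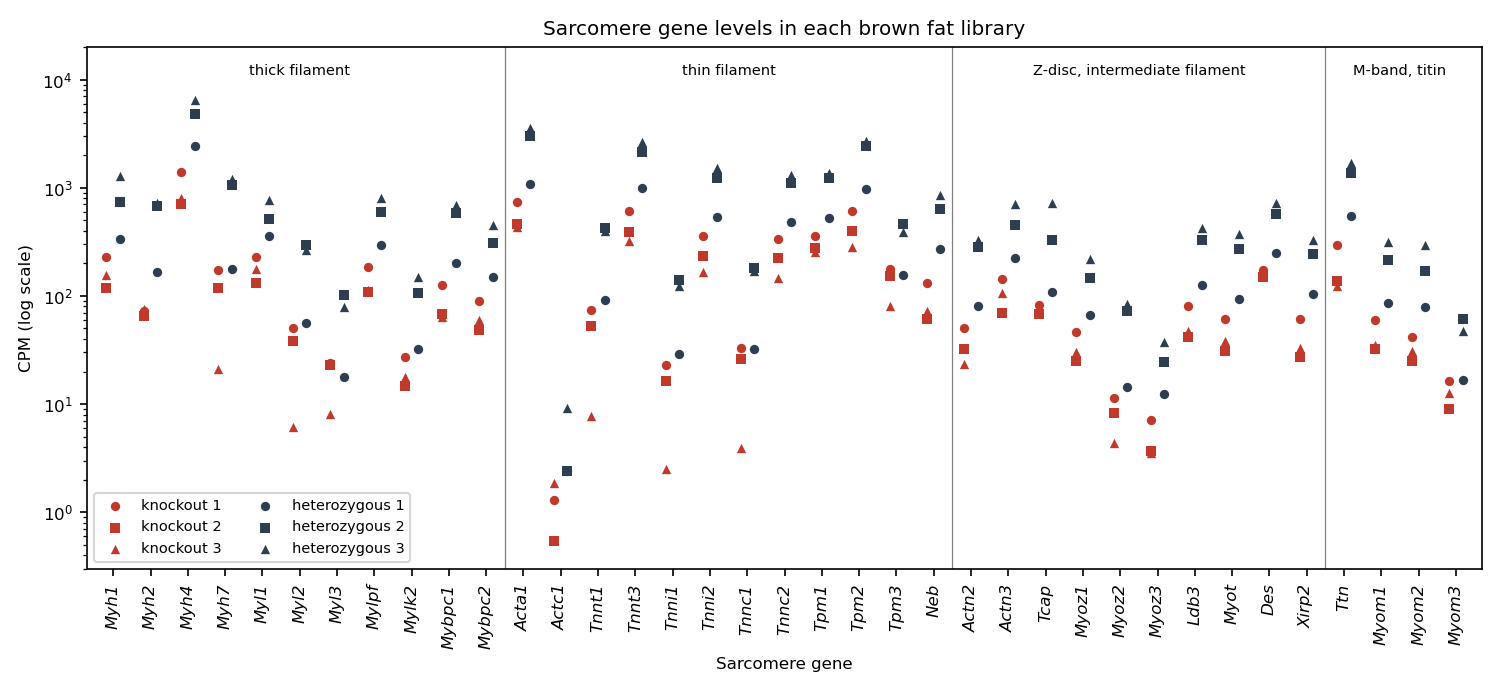
Level of each sarcomere gene in CPM on a log scale, with knockout-labelled libraries in red left of heterozygous-labelled ones in dark blue, and 1 symbol per replicate number. The knockout-labelled points lie below the heterozygous-labelled ones for 34 of 37 genes, and heterozygous 1 is the lowest of its group for all 37.

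Fitted over all 13300 tested genes, the log2 fold changes of the 37 members ran from -2.97 to -1.29, with a median of -2.27, beside a median of 0.02 over all tested genes. All 37 members were below 0, as were 46.9% of all tested genes. With edgeR's quasi-likelihood test and Benjamini-Hochberg adjustment at 0.05, 0 of 37 were called lower, while 0.534% of all tested genes were called lower, 0.0526% higher and 0.586% in either direction. Adjusted p ran from 0.0715 to 0.297. At an unadjusted p of 0.05 all 37 were lower, against 8.04% of all genes. The limma-voom fit with library quality weights called 0 of 37, against 1.24% of all genes. DESeq2 called 31 of 37, against 5.04% of the genes it adjusted. The 6 that DESeq2 did not call were the slow genes Myh7, Myl2, Myl3, Tnnc1, Tnni1 and Tnnt1. At an adjusted p of 0.1, edgeR called 27 of 37, against 3.31% of all genes. Other settings of edgeR called 0 of 37: RLE scaling (0.496% of all genes called lower), library size only (0.684%), library sizes computed without muscle genes (0.511%), no filter on low counts (0.541%), a mean of at least 1 CPM (0.574%), no robust estimation (0.511%) and the title prefix as a covariate (1.78%). Of all tested genes, 9.89% had 3 knockout-labelled values below 3 heterozygous-labelled ones without overlap, the pattern found in 34 of 37 members. Of the single libraries left out, only heterozygous 1 changed the edgeR count: without it 29 of 37 members were called lower, against 2.81% of all genes. Without knockout 3 the count was 0 of 37 (0.73% of all genes), without heterozygous 3 it was 0 of 37 (0.0445%), and without knockout 1, knockout 2 or heterozygous 2 no gene of the table was called lower (0.0%). Within the RF-titled libraries (2 against 2) the median was -1.77 and 0 of 37 were called, against 0.85% of all genes. In the RE-titled pair it was -3.17, with 1 library a group and no test.

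**Figure D2:**
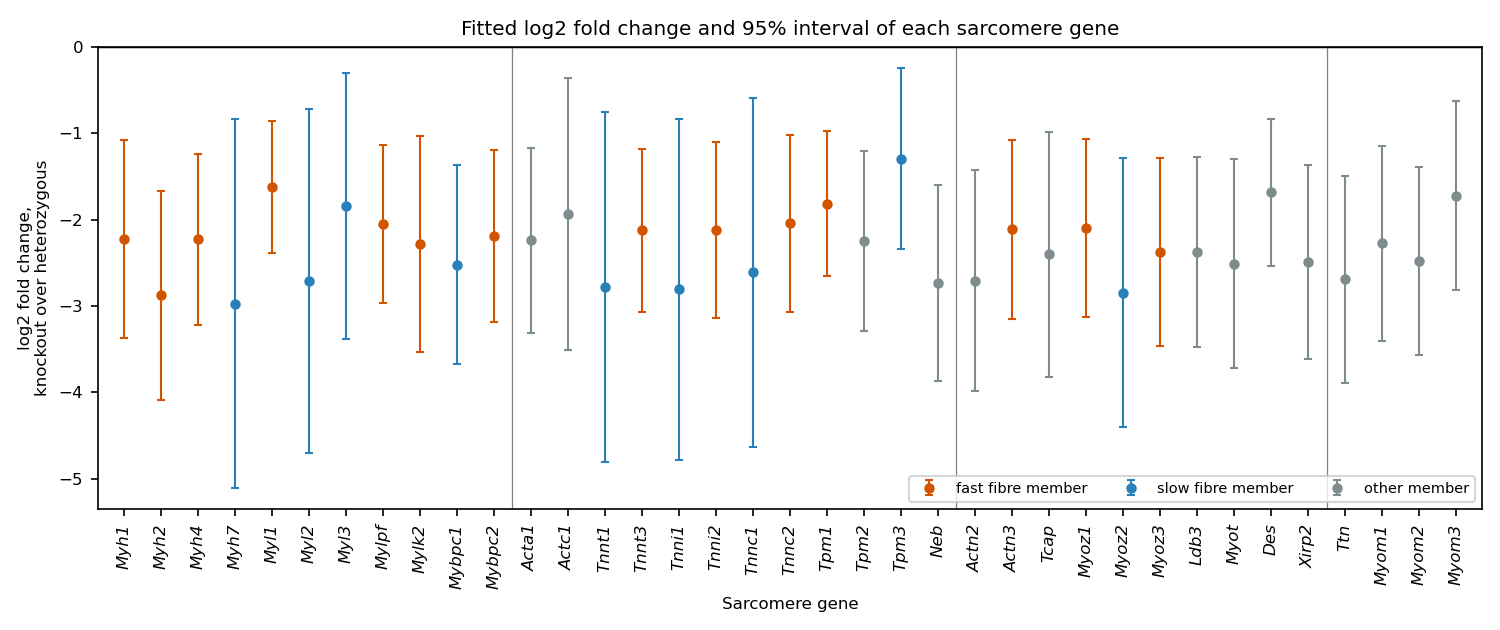
Fitted log2 fold change of each sarcomere gene, knockout over heterozygous, with its unadjusted 95% interval, in the order thick filament, thin filament, Z-disc and intermediate filament, M-band and titin. All 37 points lie between -2.97 and -1.29, and the slow gene Myh7, with an SE of 0.908, has the widest interval.

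Among thick filament genes, Myh4, the myosin heavy chain of the fastest fibres, was the most abundant per length. Myh4 stood at 1403, 709 and 811 CPM in knockout 1, 2 and 3 and at 2427, 4796 and 6446 CPM in heterozygous 1, 2 and 3. Its groups did not overlap, and knockout 1 was the highest of its own group. The log2 fold change was -2.23 (SE 0.42, adjusted p = 0.0736), or 4.68-fold lower. Myh1, the intermediate fast chain, stood at 229, 119 and 156 CPM in knockout 1, 2 and 3 and at 335, 735 and 1281 CPM in heterozygous 1, 2 and 3 (log2 fold change -2.22, adjusted p = 0.0841). Myh2, the chain of fast oxidative fibres, had the smallest p of the thick filament genes. It stood at 72.9, 64.6 and 75.9 CPM in knockout 1, 2 and 3 and at 167, 678 and 720 CPM in heterozygous 1, 2 and 3. The knockout-labelled values of Myh2 lay close together, at 71.1 ± 5.86 CPM, against 521.6 ± 308 CPM in the heterozygous-labelled libraries (SD, n = 3 each). Its log2 fold change was -2.87 (SE 0.515, adjusted p = 0.0719).

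Myh7, the slow and cardiac chain, had the largest fold change of the 37 genes and also the largest SE. It stood at 173, 118 and 21.3 CPM in knockout 1, 2 and 3 and at 179, 1062 and 1205 CPM in heterozygous 1, 2 and 3. Knockout 1 and heterozygous 1 were nearly level, and knockout 3 was far below the other 5 libraries. The log2 fold change was -2.97 (SE 0.908, adjusted p = 0.211), and -2.49 without knockout 3.

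The light chains support the neck of the myosin head. The fast regulatory chain Mylpf stood at 185, 108 and 114 CPM in knockout 1, 2 and 3 and at 296, 598 and 798 CPM in heterozygous 1, 2 and 3, and the fast essential chain Myl1 at 227, 131 and 178 CPM in knockout 1, 2 and 3 and at 356, 514 and 774 CPM in heterozygous 1, 2 and 3. Both were separated by genotype label, with log2 fold changes of -2.05 and -1.62. The slow regulatory chain Myl2 stood at 50.8, 37.9 and 6.18 CPM in knockout 1, 2 and 3 and at 56.6, 298 and 264 CPM in heterozygous 1, 2 and 3. The slow essential chain Myl3 stood at 24.2, 23.0 and 8.12 CPM in knockout 1, 2 and 3 and at 17.8, 102 and 78.4 CPM in heterozygous 1, 2 and 3, and its groups overlapped. In both slow chains knockout 3 was the lowest library. Their log2 fold changes were -2.70 (SE 0.847) for Myl2 and -1.84 (SE 0.655) for Myl3, which had the highest adjusted p of the members, 0.297.

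Myosin-binding proteins brace the thick filament. The slow form Mybpc1, which fast fibres also make, stood at 126.5, 68.4 and 63.7 CPM in knockout 1, 2 and 3 and at 203, 588.5 and 690.5 CPM in heterozygous 1, 2 and 3. The fast form Mybpc2 stood at 90.5, 48.2 and 60.1 CPM in knockout 1, 2 and 3 and at 149, 308.5 and 450.1 CPM in heterozygous 1, 2 and 3. Neither overlapped between groups. Mylk2, the kinase that phosphorylates the regulatory chain in skeletal muscle, had a log2 fold change of -2.28 (SE 0.532, adjusted p = 0.0947).

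In the thin filament, Acta1, skeletal actin, was the highest of all members per length in both groups. Its mean was 354 CPM per kb of exonic length in the knockout-labelled libraries and 1667 in the heterozygous-labelled ones. Acta1 stood at 736, 460.5 and 432.5 CPM in knockout 1, 2 and 3 and at 1089, 2989 and 3603 CPM in heterozygous 1, 2 and 3 (log2 fold change -2.24, SE 0.456, adjusted p = 0.0789). Actc1, the cardiac and fetal actin, was the lowest member per length, with counts of 29, 14 and 40 reads in knockout 1, 2 and 3 and 45, 48 and 198 reads in heterozygous 1, 2 and 3. It was highest in heterozygous 3 and, within its group, in knockout 3, which are the RE-titled libraries. Neb, the giant ruler of the thin filament, had the smallest p of all 37 members. Neb stood at 133, 61.7 and 72.4 CPM in knockout 1, 2 and 3 and at 269, 640.0 and 862 CPM in heterozygous 1, 2 and 3 (log2 fold change -2.73, SE 0.483, adjusted p = 0.0715).

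The fast troponins, the calcium switch of fast fibres, were among the most abundant members per length. The tropomyosin-binding subunit Tnnt3 stood at 607.5, 388.5 and 324 CPM in knockout 1, 2 and 3 and at 992, 2139 and 2623 CPM in heterozygous 1, 2 and 3. The inhibitory subunit Tnni2 stood at 355, 234 and 168 CPM in knockout 1, 2 and 3 and at 539, 1224 and 1521 CPM in heterozygous 1, 2 and 3. The calcium-binding subunit Tnnc2 stood at 335, 222 and 147 CPM in knockout 1, 2 and 3 and at 482, 1106 and 1307 CPM in heterozygous 1, 2 and 3. None of the fast troponins overlapped between groups, and their log2 fold changes lay close together, at -2.12, -2.12 and -2.04. Tnni2 and Tnnt3 are neighbours on the plus strand of chromosome 7, Tnni2 from 142441808 to 142444410 and Tnnt3 from 142498836 to 142516009.

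The slow troponins were measured in the same libraries. Tnnt1 stood at 73.5, 52.7 and 7.71 CPM in knockout 1, 2 and 3 and at 91.6, 426 and 399 CPM in heterozygous 1, 2 and 3. Tnni1 stood at 22.9, 16.4 and 2.54 CPM in knockout 1, 2 and 3 and at 28.9, 140.1 and 124 CPM in heterozygous 1, 2 and 3. Tnnc1, shared with heart, stood at 32.7, 26.2 and 3.97 CPM in knockout 1, 2 and 3 and at 32.2, 181 and 170.1 CPM in heterozygous 1, 2 and 3. Knockout 3 was the lowest library for all of the slow troponins and heterozygous 1 lay near knockout 1, with overlap between groups for Tnnc1. The log2 fold changes were -2.77 for Tnnt1, -2.81 for Tnni1 and -2.61 for Tnnc1, with SE from 0.839 to 0.863 and adjusted p from 0.2 to 0.249.

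Tropomyosins lie along the actin groove, and Tpm1 and Tpm3 also have forms made outside muscle. Tpm1 stood at 358, 277.5 and 256 CPM in knockout 1, 2 and 3 and at 530.3, 1221 and 1381 CPM in heterozygous 1, 2 and 3. Tpm3 stood at 179, 152 and 80.4 CPM in knockout 1, 2 and 3 and at 155, 467 and 387.5 CPM in heterozygous 1, 2 and 3, overlapped between groups and had the smallest fold change of the 37 members (log2 fold change -1.29, SE 0.447, adjusted p = 0.279). Tpm2, the beta form, did not overlap between groups, at 429 ± 163 CPM in knockout-labelled and 2041 ± 933 CPM in heterozygous-labelled libraries (SD, n = 3 each).

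All 10 Z-disc and intermediate filament genes were lower in the 3 knockout-labelled libraries without overlap, against 9.89% of all tested genes. Xirp2, an actin-binding repeat protein, had the smallest p of these. Xirp2 stood at 61.0, 27.1 and 33.0 CPM in knockout 1, 2 and 3 and at 105, 244 and 329 CPM in heterozygous 1, 2 and 3 (log2 fold change -2.48, SE 0.478, adjusted p = 0.0755). Myoz2, which anchors calcineurin at the Z-disc of slow and heart muscle, had the largest fold change of the 10 (log2 fold change -2.84, SE 0.661, adjusted p = 0.0939). Myoz2 stood at 11.3, 8.23 and 4.38 CPM in knockout 1, 2 and 3 and at 14.5, 72.9 and 84.6 CPM in heterozygous 1, 2 and 3. Its fast partner Myoz1 stood at 46.0, 24.9 and 30.3 CPM in knockout 1, 2 and 3 and at 66.8, 147 and 219 CPM in heterozygous 1, 2 and 3. Knockout 3 was the lowest library for Myoz2 and lay between the other knockout-labelled libraries for Myoz1. Among the rest, the fold change was -2.71 for Actn2 and -2.11 for Actn3, the actinins that cross-link thin filaments, and -2.40 for Tcap, the cap of titin (log2 scale). It was -2.38 for Myoz3, -2.38 for Ldb3 and -2.51 for Myot, which hold the actinins in place, and -1.68 for the intermediate filament gene Des.

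Titin and the M-band genes were lower without overlap in all 4 cases, against 9.89% of all tested genes. Ttn stood at 297, 138.5 and 124 CPM in knockout 1, 2 and 3 and at 550.0, 1357 and 1704 CPM in heterozygous 1, 2 and 3 (log2 fold change -2.69, SE 0.511, adjusted p = 0.0736). Myom2, the M-band protein of fast fibres, had the smallest p of these genes, at 41.8, 25.0 and 31.0 CPM in knockout 1, 2 and 3 and 79.0, 170.4 and 294 CPM in heterozygous 1, 2 and 3 (log2 fold change -2.47, SE 0.465, adjusted p = 0.0736). Myom1 had a log2 fold change of -2.27. Myom3 had a smaller one, -1.72 (SE 0.467, adjusted p = 0.15), and its groups nearly touched, at 16.4 CPM in knockout 1 and 16.6 CPM in heterozygous 1.

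The balance of fast and slow isoforms did not separate the genotype labels. The 14 fast genes had a median log2 fold change of -2.12, with SE from 0.324 to 0.532, and all 14 were lower without overlap. All 9 slow genes had a median of -2.70, and 6 of 9 were lower without overlap. A core of 7 slow genes leaves out Tpm3 and Mybpc1, which are also made outside slow fibres. Tpm1 stayed among the fast genes, although it too has forms made outside muscle. The 7 slow genes had a median of -2.77, with SE from 0.655 to 0.908, and 5 of 7 were lower without overlap. Of all tested genes, 9.89% had that pattern. Without knockout 3 these medians were -2.07 for the fast and -2.28 for the 7 slow genes.

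The summed level of the 7 slow genes was 132, 100.4 and 18.9 CPM per kb in knockout 1, 2 and 3 and 143, 753 and 717 CPM per kb in heterozygous 1, 2 and 3. That of the 14 fast genes was 1768, 1090.1 and 980.2 CPM per kb in knockout 1, 2 and 3 and 2770.0, 5921 and 7563 CPM per kb in heterozygous 1, 2 and 3. Neither sum overlapped between groups, and the fast sum exceeded the slow one in every library. The slow genes made up 6.96%, 8.44% and 1.89% of both sums together in knockout 1, 2 and 3 and 4.92%, 11.3% and 8.66% in heterozygous 1, 2 and 3, and this share overlapped between groups. Of the summed level per length of the adult heavy chains, Myh4 made up 77.9%, 74.0% and 78.2% in knockout 1, 2 and 3 and 80.6%, 70.5% and 70.8% in heterozygous 1, 2 and 3. Fast chains dominated every library. The slow chain Myh7 made up 6.69%, 8.60% and 1.43% in knockout 1, 2 and 3 and 4.14%, 10.9% and 9.24% in heterozygous 1, 2 and 3. The means of this Myh7 share were 5.57% ± 3.71 in knockout-labelled and 8.09% ± 3.52 in heterozygous-labelled libraries (SD, n = 3 each). The groups overlapped for all of the heavy chain shares. Myh1 made up 11.7% to 14.2% in the knockout-labelled libraries and 10.2% to 13.3% in the heterozygous-labelled ones, and Myh2 made up 3.41% to 6.17% in the knockout-labelled and 4.67% to 8.40% in the heterozygous-labelled ones. Reads with several alignments were set aside, while the lengths used include stretches that the heavy chains have in common, so these shares are uncertain.

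**Figure D3:**
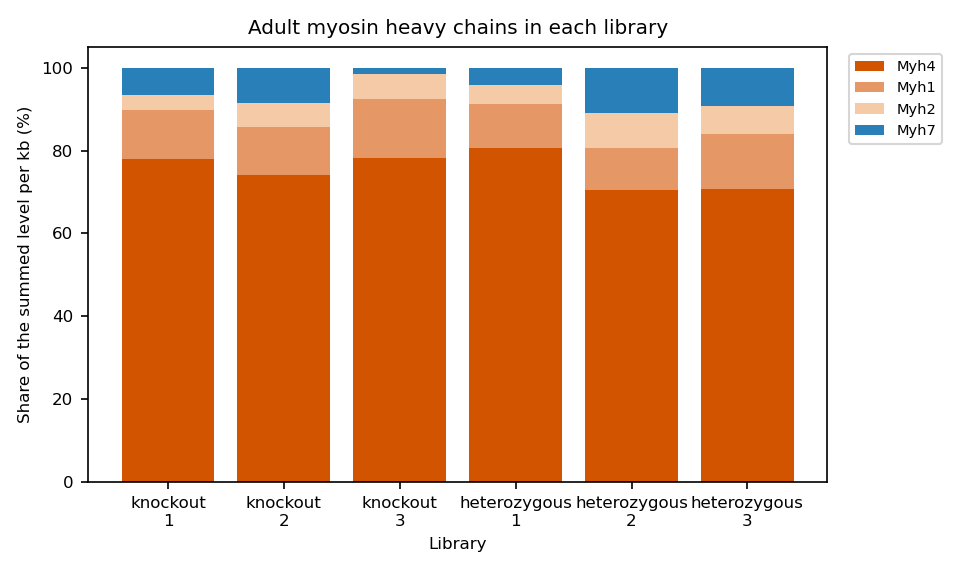
Share of each adult myosin heavy chain in their summed level per kb of exonic length, in percent, for each library. Myh4 takes 70.5% to 80.6% everywhere, and the blue Myh7 share is smallest in knockout 3, at 1.43%.

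Each slow gene was set against its fast partner in the same library, in 9 pairs, as a log2 ratio per exonic length that library scaling cannot move. No pair separated the groups. In 8 of 9 pairs knockout 3 had the lowest ratio of the 6 libraries, and in 8 of 9 heterozygous 2 had the highest. The ratio of Myh7 to Myh4 was -3.54, -3.11 and -5.77 in knockout 1, 2 and 3 and -4.28, -2.69 and -2.94 in heterozygous 1, 2 and 3. The ratio of Tnni1 to Tnni2 was -5.22, -5.11 and -7.30 in knockout 1, 2 and 3 and -5.49, -4.39 and -4.88 in heterozygous 1, 2 and 3. In both pairs, knockout 1 and 2 lay inside the range of the heterozygous-labelled libraries. Differences of the group means, knockout minus heterozygous, ran from -0.95 (Tnni1 over Tnni2, exact two-sided permutation p = 0.4) to 0.49 (Tpm3 over Tpm1, exact permutation p = 0.2). The smallest p that 3 against 3 allows is 0.1, and adjusted over the 9 pairs the values ran from 0.643 to 0.8. Without knockout 3 the differences ran from -0.28 to 0.73, and that of Myh7 over Myh4 was -0.02. Without heterozygous 1, 6 of the 9 pairs had all knockout-labelled ratios below the heterozygous-labelled ones, against 0 with it.

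**Figure D4:**
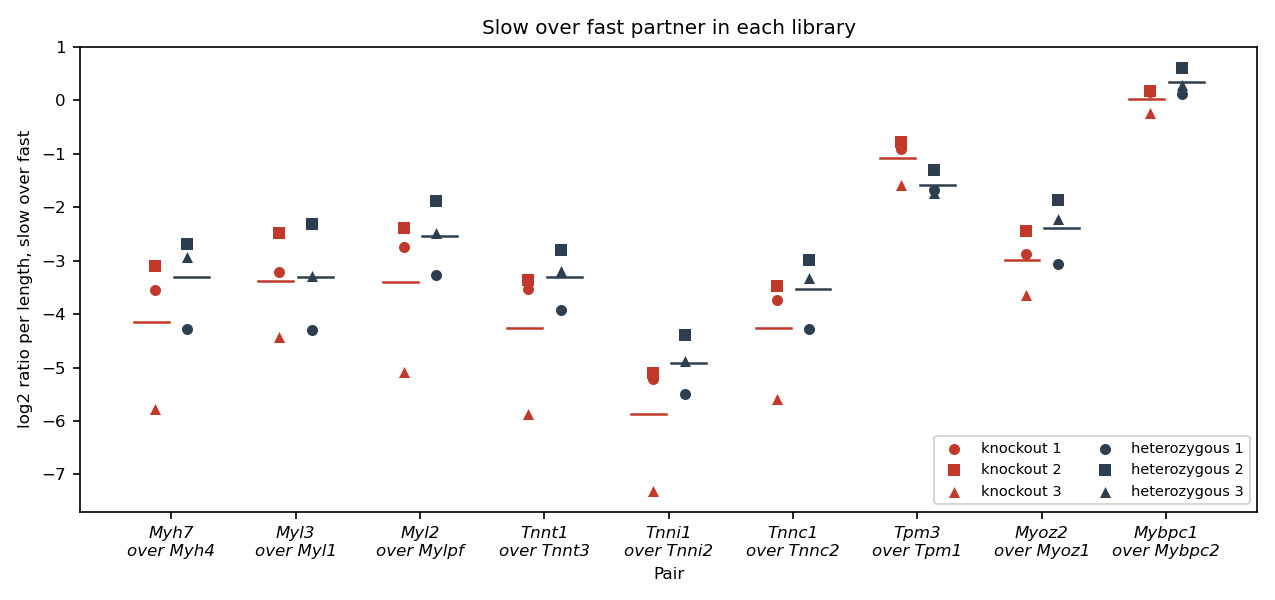
Log2 ratio of the slow over the fast partner per exonic length, with knockout-labelled libraries in red left of heterozygous-labelled ones in dark blue, and bars at the group means. Knockout 3, the red triangle, is the lowest of all 6 libraries in 8 of 9 pairs, and no pair separates the groups.

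A further view takes out the level that the 37 genes share in a library. Each gene's log2 CPM was set against its own mean over the 6 libraries, and the library's median of these values was removed. That median was -0.53, -1.27 and -1.32 in knockout 1, 2 and 3 and 0.04, 1.42 and 1.85 in heterozygous 1, 2 and 3. For the 14 fast genes, the spread of what remained from the lowest to the highest library had a median of 0.495 on the log2 scale, and was widest in Myh2 (1.26) and Myl1 (1.21). For the 7 slow genes the median spread was 2.74, the narrowest being that of Myoz2 (1.17), and the median was 1.01 without knockout 3. The slow genes left out of the 7 had spreads of 0.455 (Mybpc1) and 1.78 (Tpm3), and the median over all 9 was 2.60. In knockout 3 the remainders of the 7 slow genes ran from -2.12 in Tnnt1 to -0.48 in Myl3, while those of the fast genes ran from -0.27 to 0.56. Relative to the heterozygous-labelled mean, the same 7 slow genes stood at 2.52% to 12.3% in knockout 3, against 14.4% to 34.9% in knockout 2 and 19.8% to 36.6% in knockout 1. The 14 fast genes stood at 14.3% to 32.4% in knockout 3, 12.4% to 26.6% in knockout 2 and 14.0% to 41.5% in knockout 1. Acta1 and Myom1 followed the shared level most closely, with spreads of 0.161 and 0.166. Outside the slow class, Actc1 departed most, with a spread of 2.43 at its low counts. All 9 slow genes were lowest in knockout 3 among the 6 libraries, whereas 9 of the 14 fast genes were lowest in knockout 2. These spreads describe the libraries, and no test was made on them.

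**Figure D5:**
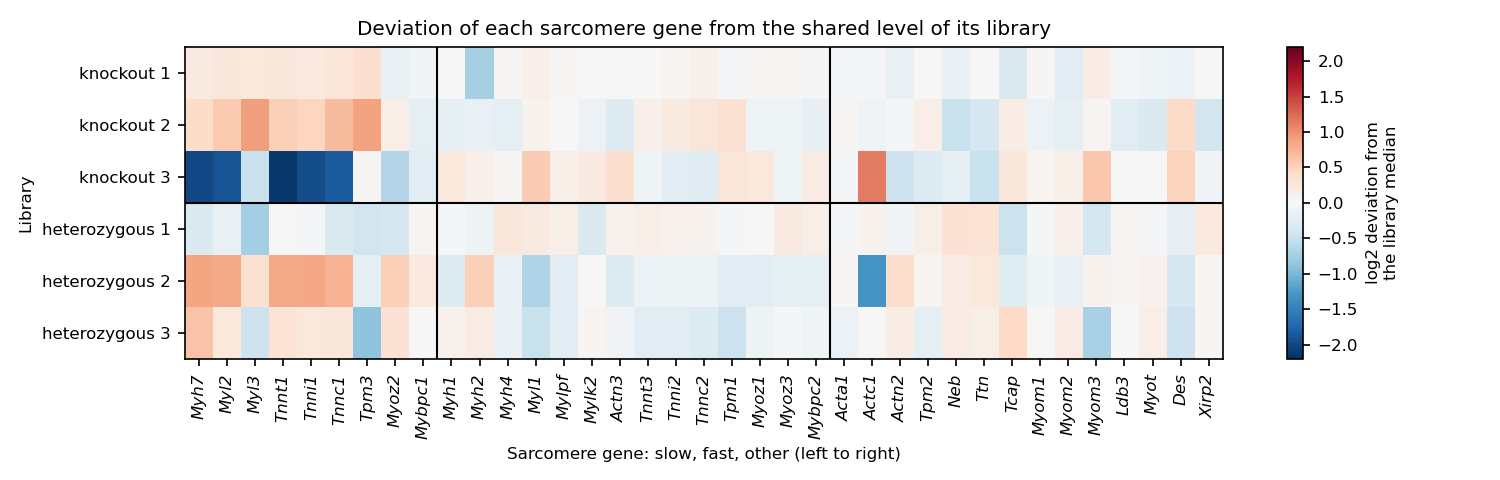
Log2 deviation of each sarcomere gene (columns) from the shared level of its library (rows), after removing the gene's mean and the library's median, with slow genes left, fast genes in the middle and other genes right. Myh7, Myl2, Tnnt1, Tnni1 and Tnnc1 reach between -2.12 and -1.84 in knockout 3, while the fast genes lie between -0.27 and 0.56 there.

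Muscle genes outside the sarcomere list had the same direction. Of 67 such genes, 65 were tested, and their median log2 fold change was -2.19. All 65 were below 0, against 46.9% of all tested genes, and 58 were lower without overlap, against 9.89%. By edgeR 0 of 65 were called lower, against 0.534% of all genes, and DESeq2 called 59, against 5.04% of the genes it adjusted. Other sarcomere and assembly genes (27 tested, median -2.26) included Tmod1, which caps thin filaments, at -2.15 (SE 0.353, adjusted p = 0.0583) and Fhl3 at -1.65. Among 16 membrane, costamere and excitation genes (median -2.24), the chloride channel Clcn1 was at -2.61, the calcium release channel Ryr1 at -2.53 and the calcium store protein Casq1 at -2.17. Among 12 muscle fuel genes (median -2.10), Phkg1, a phosphorylase kinase subunit, was at -2.01, Ampd1 at -2.35 and the glycogen phosphorylase Pygm at -2.19. Among 10 tested muscle regulators (median -1.93), Eya1 was at -2.07 (adjusted p = 0.0581), Vgll2 at -2.76 and Mef2c at -1.89.

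Markers of other cells were measured in the same libraries. Smooth muscle markers, 7 of 7 tested, summed to 157 to 200.1 CPM in the knockout-labelled libraries and 211 to 256 CPM in the heterozygous-labelled ones. Their median log2 fold change was -0.28. These sums did not overlap, but only 1 of the 7 genes was itself lower without overlap, against 9.89% of all tested genes. That gene was Lmod1 (log2 fold change -1.28). Brown adipocyte markers, 8 of 8 tested, summed to 7102 to 11360 CPM in knockout-labelled and 7021 to 9580 CPM in heterozygous-labelled libraries (median -0.17). Endothelial markers, 3 of 3 tested, summed to 492 to 505 CPM in knockout-labelled and 410.4 to 544 CPM in heterozygous-labelled libraries (median 0.04). By edgeR 0 of the 18 smooth muscle, brown adipocyte and endothelial markers were called lower, against 0.534% of all tested genes. The same test called 0 of the 37 sarcomere genes lower, so its calls do not set these markers apart from them. Elovl3, a fatty acid elongase of brown fat, was called higher (log2 fold change 1.03, adjusted p = 0.0418), against 0.0526% of all tested genes. Cidea, also a brown adipocyte marker, was higher without overlap but was not called (log2 fold change 0.42, edgeR adjusted p = 0.421).

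The RE-titled libraries stood apart for Ppargc1a and Dio2 of the brown adipocyte list, named after their values were seen. Ppargc1a, a coactivator of mitochondrial genes, stood at 259, 262 and 64.2 CPM in knockout 1, 2 and 3 and at 429, 494 and 87.4 CPM in heterozygous 1, 2 and 3. Dio2, which activates thyroid hormone, stood at 301, 269 and 94.6 CPM in knockout 1, 2 and 3 and at 463, 541 and 77.7 CPM in heterozygous 1, 2 and 3. Knockout 3 and heterozygous 3 were the lowest libraries for both genes, as they were for Ucp1 and Prdm16 of the same list. Cidea, Elovl3, Cox8b and Cpt1b, the rest of the list, did not share this pattern. Cidea was instead highest of each group in the RE-titled libraries, at 4529 CPM in knockout 3 and 3335.5 CPM in heterozygous 3. White adipocyte markers summed to 714, 1046 and 1728 CPM in knockout 1, 2 and 3 and to 949, 935 and 1498 CPM in heterozygous 1, 2 and 3. Among them the hormone gene Lep stood at 33.2, 14.3 and 281 CPM in knockout 1, 2 and 3 and at 20.9, 26.3 and 73.9 CPM in heterozygous 1, 2 and 3. White adipocyte sums and Lep were highest in knockout 3 and next in heterozygous 3, as were Adipoq and Retn of this list. Adipoq made up most of each sum, at 1302 CPM in knockout 3 and 1261 CPM in heterozygous 3. Nnat, the rest of the list, did not share this pattern. It stood at 34.1, 64.1 and 39.2 CPM in knockout 1, 2 and 3 and at 21.4, 60.85 and 70.2 CPM in heterozygous 1, 2 and 3. Macrophage markers summed to 24.2 to 43.1 CPM in knockout-labelled and 14.9 to 38.2 CPM in heterozygous-labelled libraries, the RE-titled library being the highest of each group.

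Of 8 heart markers, 2 passed the filter on low counts, and Myl7 and Nppa had 0 reads in all libraries but knockout 3, which had 1 read of each. Heart markers summed to 4.52 to 6.79 CPM in knockout-labelled and 6.76 to 24.9 CPM in heterozygous-labelled libraries, the highest value being heterozygous 1. Muscle stem cell markers, 1 of 4 tested, summed to 0.415 to 0.896 CPM in knockout-labelled and 1.28 to 6.14 CPM in heterozygous-labelled libraries. The tested gene, Myod1, is also in the list of muscle regulators and held 4.57 of the 6.14 CPM in heterozygous 3. The others were near the floor: Pax7 had 1 to 14 reads a library, Calcr 0 to 8 and Myf5, which overlapped between groups, 2 to 19. Nerve and Schwann cell markers summed to 22.0 to 36.2 CPM in knockout-labelled and 21.2 to 83.1 CPM in heterozygous-labelled libraries, the highest value being heterozygous 3. The part of these markers, of reads in genes and of reads with more than 1 alignment in the sarcomere values was not tested.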

How the data were processed

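The members and lists were chosen with earlier results of these data known. Per the labels' protocols, total RNA came from frozen, pulverised brown fat of 3 mice per genotype. The authors deposited raw read counts per gene, 1 column per library. Per the submitters' processing notes, the build was mm10 and the tools included HTSeq, STAR 2.7.2b, SAMtools 1.9, edgeR, Bowtie2 2.3.4.3 and Trim Galore, with no role or order. Annotation, strand and multi-match settings are not stated there.

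The 5 rows that name no gene, 41.7% to 49.0% of the column totals in knockout-labelled and 51.6% to 56.1% in heterozygous-labelled libraries, stayed out of library sizes. Counts were fitted on genotype alone with edgeR 4.0.16 in R 4.3.3 (TMM, filterByExpr with a minimum count of 10 and total of 15, robust quasi-likelihood F test, Benjamini-Hochberg over 13300 genes). CPM uses TMM-scaled sizes. All 37 members passed the filter, with at least 14 reads in each library. Slow over fast ratios took 0.5 counts added and the union of GENCODE M21 exons (GRCm38), which includes exons used outside muscle. Deviations from the shared level used log2 of CPM plus 0.5. Values in every library were given for the partners of each pair, the heavy chains and, per role, the smallest p and the largest fold change; of other lists, up to 3 genes with the smallest p. Alternatives were RLE, library size only, muscle genes left out of library sizes, other filters, each library left out, title prefix, DESeq2 1.42.0, limma-voom with library quality weights (limma 3.58.1), no robust estimation and an adjusted p of 0.1. Replicate numbers follow accession order and pair nothing. No column of the table was left unmapped (0). Some genes that the rule for named genes picks are not reported here.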

Additional observations from a re-analysis of the deposited data

How the results depend on the processing

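No paired analysis was possible because the labels give the groups no shared replicate numbers. The title prefix, which both genotypes share, was used as a covariate instead and called 0 members. All 37 members kept a log2 fold change below 0 under all 16 alternative fits. The count of members called, 0, became 31 with DESeq2 and 27 at an adjusted p of 0.1, and ran from 0 to 29 when single libraries were left out, the 29 without heterozygous 1. The members' median log2 fold change, -2.27, was -1.77 in the RF-titled libraries alone. Of the muscle genes outside the members, 0 were called in the main fit and 59 with DESeq2 (5.04% of the genes it adjusted). At an adjusted p of 0.1 edgeR called 47 (3.31% of all genes), and with the title prefix as a covariate 5 (1.78%). No filter on low counts gave 2 (0.541%), library size only 1 (0.684%) and limma-voom with library quality weights 1 (1.24%). Leaving out single libraries gave 0 to 53, the 53 without heterozygous 1 (2.81%). In either direction, slow over fast pairs whose groups do not overlap numbered 0, against 1 in the RF-titled libraries alone. That pair was Tpm3 over Tpm1, which was higher in the knockout-labelled libraries, as it also was without knockout 3 or without heterozygous 2. When single libraries were left out, 0 to 6 pairs did not overlap, and the 6 without heterozygous 1 were all lower in the knockout-labelled libraries. The pairs were not run with the title prefix as a covariate. Why these values moved was not tested. Actc1, with 14 to 198 reads a library, is limited by depth.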

Other observations

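Myosin heavy chains of heart and of developing muscle, which are not among the 37 genes, were low and uneven. Myh6, the fast heart chain and neighbour of Myh7, had 11, 10 and 2 reads in knockout 1, 2 and 3 and 376, 33 and 26 reads in heterozygous 1, 2 and 3. Heterozygous 1 therefore held most of the Myh6 reads. Of the other heart markers in that library, Ryr2 had 13 reads, the most of the 6 libraries, Myl4 had 63, Tnnt2 and Tnni3 had 7 each, and Myl7, Nppa and Mybpc3 had 0. The log2 fold change of Myh6 was -4.51 (SE 1.28, edgeR adjusted p = 0.171), and -2.10 without heterozygous 1.

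Myh3, the embryonic chain, had 1, 3 and 13 reads in knockout 1, 2 and 3 and 7, 20 and 129 reads in heterozygous 1, 2 and 3. Myh8, the perinatal chain, had 2, 3 and 40 reads in knockout 1, 2 and 3 and 4, 18 and 141 reads in heterozygous 1, 2 and 3. Within each genotype label the RE-titled library was the highest for both genes, as it was for Actc1. Neither passed the threshold (edgeR adjusted p = 0.314 for Myh3 and 0.72 for Myh8).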
